A study of Homo sapiens with 9 samples.

Results

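The subject here is the transcriptome of U251 cells that received only a transfection reagent, read from the 3 arrays whose titles mark them as reagent controls, of 9 arrays in the series. U251 (U251MG) is a permanent cell line grown from a malignant glioma of the human brain. Oligofectamine, a cationic lipid used to carry small interfering RNA (siRNA) into cells, was added to these cultures without any RNA. The other 6 arrays came from cultures given the same reagent with a non-targeting siRNA or with an siRNA against WT1, 3 each, and no comparison with them was made. Cells of every group had been plated in equal numbers in the wells of 6-well plates, with triplicate wells, and the submitters call the arrays biological triplicates. Nothing in the sources says which wells, days or passages the replicate numbers stand for. The p-values therefore measure only the spread among these 3 cultures of a gene's distance from a background line, defined below. A culture without the reagent was not analysed here, so these are levels in reagent-exposed cells of 1 line.

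Gliomas are tumours of the brain with features of glial cells or of the progenitors that make them. Astrocytes are recognised by the filament protein GFAP and by transporters that clear glutamate, oligodendrocytes by myelin proteins, and neural progenitors by nestin and SOX transcription factors. Glioblastomas have been sorted by their transcripts into types, among them a proneural type with progenitor genes and a mesenchymal type with genes of matrix, adhesion and inflammation. Glioma lines grown in serum often lose glial markers and keep a spindle-shaped, adherent form rich in vimentin.

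Each value is a deposited log2 level of a probe set, a group of short probes for 1 transcript region. A gene was represented by its brightest probe set, and only probe sets with exactly 1 gene symbol were used, which gave 11963 genes. The brightness of a probe set depends on its own sequence as well as on the amount of transcript, so genes are ordered here by brightness and not by number of molecules. To say which genes were detected, a background line was set in each array at the 95th percentile of 87 genes of unrelated tissues, such as liver, muscle, pancreas, retina and blood. The line lay at 7.08, 6.82 and 6.68 in replicates 1, 2 and 3, and the median of those background genes lay at 5.06, 4.95 and 4.88. A gene was called above or below the line where its distance from the line of the same array, over the 3 arrays, passed limma's moderated test with a Benjamini-Hochberg adjusted p under 0.05. All genes of an array share its line, so the spread of the line among arrays entered every test. The tests were therefore not independent between genes. A level below the line does not show that a transcript was missing, only that the probe set was no brighter than genes these cells are not known to use.

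Of the 11963 genes, 5474 (45.8%) were above the line, 5222 (43.7%) were below it and 1267 (10.6%) were not separated from it. The mean lay under the median of the background genes for 2183 genes (18.2%). Of the background genes themselves 81 were below the line, 5 were not separated and 1, CYP3A4, was above it. The share above the line was 38.3% of the 7653 genes with 1 probe set and 67.7% of the 643 genes with 4 or more, so a gene with many probe sets had more chances to pass. The 3 arrays had median levels of 6.45 to 6.48 over all probe sets, and their gene levels correlated in pairs with a Spearman coefficient of 0.987 to 0.994 across genes, which are not independent replicates. For arrays, their number limits the precision.

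**Figure D1:**
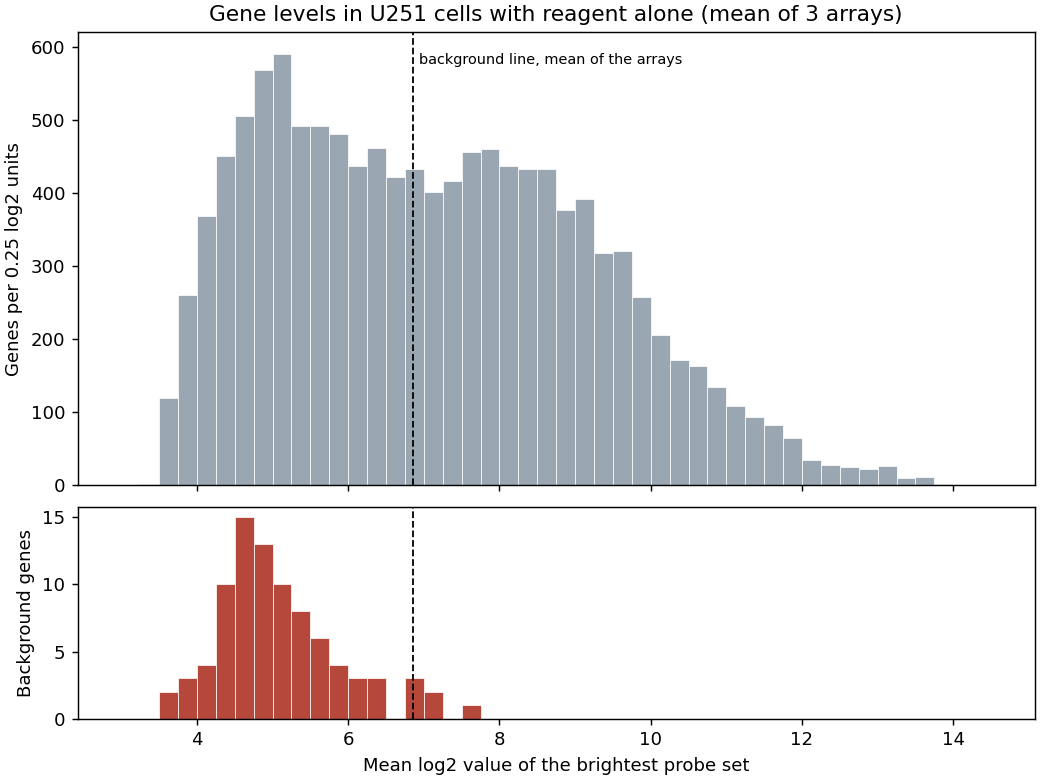
Number of genes by mean log2 level over the 3 reagent arrays, in steps of 0.25 (upper panel), and the same for the 87 background genes (lower panel). The dashed line marks the mean background line at 6.86. Most background genes sit to its left, and the gene levels reach from 3.47 to 14.07.

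Genes of protein synthesis and the cytoskeleton stood among the brightest. ACTB, cytoplasmic beta-actin, led with 14.05, 14.07 and 14.09, followed by the translation elongation factor EEF1A1 (mean 13.91) and the glycolytic enzyme GAPDH (mean 13.79). Ribosomal protein genes filled 16 of the first 30 places, and 51 of 56 measured ribosomal protein genes were above the line. The other 14 included the tubulins TUBA1B (13.61) and TUBA1C (13.54), the peptidyl-prolyl isomerase PPIA (13.71), the actin-binding peptide gene TMSB4X (13.45), the chaperone HSP90AA1 (13.51), the ferritin light chain FTL (13.55) and the ubiquitin gene UBB (13.23). Many of these genes have near-identical family members or processed copies whose transcripts a probe set may not tell apart. Less common among housekeeping genes were ANXA2 (13.67), a calcium-dependent membrane-binding protein, VIM (13.66), the filament protein vimentin, and S100A6 (13.23), a small calcium-binding protein. The order was stable among cultures: 24 genes were in the first 30 of all 3 arrays, and 92 in the first 100. As a reference, 14 of 14 measured translation genes and 23 of 23 measured proteasome genes were above the line.

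The sequence around the transcription start differed between genes above and below the line. Promoters rich in the CpG dinucleotide are typical of genes used in most cell types, and promoters poor in it of genes used in few. RefSeq (GRCh38.p14) gave exactly 1 promoter window, 250 bases before to 50 bases after the start, for 6810 of the genes, of which 47.7% were above the line. The share above the line was 5.59% of the 823 genes with 0 to 4 CpG in that window, 12.1% of the 544 with 5 to 9, and 44.8% of the 1061 with 10 to 19. It was 61.1% of the 1976 genes with 20 to 29 and 60.3% of the 2406 with 30 or more, so the share rose up to about 20 CpG and no further. Genes above the line had a median of 28 CpG, genes below it 15, and the background genes 4 (n = 48). The motif TATAAA, searched on both strands, was found in 8.91% of all 6810 windows, in 4.50% above the line and in 14.7% below it. Among the 1000 brightest genes it was found in 8.70% of 586 windows, and among the 1000 dimmest in 22.5% of 610. GGGCGG, searched on both strands, stood in 75.4% of windows above the line and 50.6% below it (64.5% of all), while CCAAT differed less, at 39.6% and 36.7% (38.4% of all). These shares are descriptions across genes, and a match is not shown to be a site in use.

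**Figure D2:**
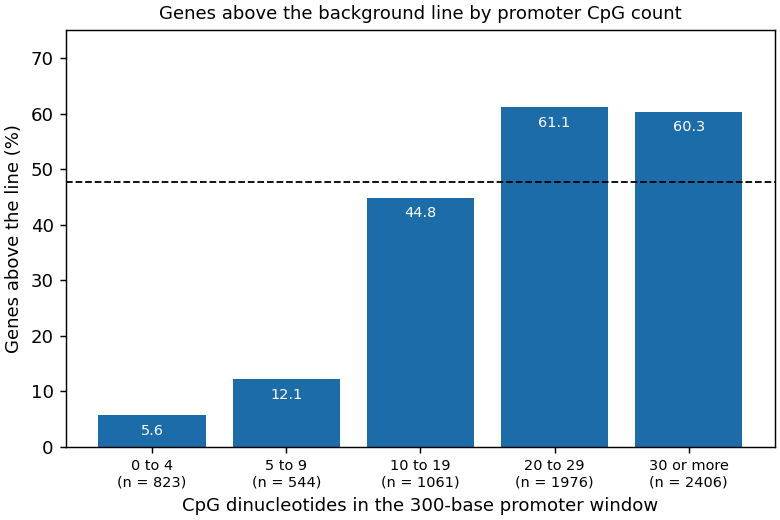
Share of genes above the background line (bars, %) by the number of CpG dinucleotides in the promoter window, for the 6810 genes with 1 RefSeq window. Numbers of genes stand under the bars, and the dashed line marks the 47.7% of all these genes; the share goes from 5.59% in the class with the fewest CpG to 61.1% in the class with 20 to 29.

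Windows of 4 genes are shown because they follow the relation or depart from it. ANXA2 (32 CpG) and PTPRC (1 CpG) follow it, bright and dim, while ANXA1 (0 CpG, bright) and MGMT (45 CpG, dim) do not. The windows lie at chr15:60397937-60398236 on the minus strand for ANXA2 and, on the plus strand, at chr9:73151615-73151914 for ANXA1, chr10:129466991-129467290 for MGMT and chr1:198638790-198639089 for PTPRC. Each is written 5′ to 3′ along the gene, with CG and TATAAA (on either strand) in capitals.
ANXA2: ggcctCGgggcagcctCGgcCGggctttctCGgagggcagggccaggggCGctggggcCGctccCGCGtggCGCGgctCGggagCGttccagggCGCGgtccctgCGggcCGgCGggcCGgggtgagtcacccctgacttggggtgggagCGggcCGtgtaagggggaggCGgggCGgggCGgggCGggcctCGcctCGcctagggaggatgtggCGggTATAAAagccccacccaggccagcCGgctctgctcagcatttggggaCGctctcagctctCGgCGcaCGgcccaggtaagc
ANXA1: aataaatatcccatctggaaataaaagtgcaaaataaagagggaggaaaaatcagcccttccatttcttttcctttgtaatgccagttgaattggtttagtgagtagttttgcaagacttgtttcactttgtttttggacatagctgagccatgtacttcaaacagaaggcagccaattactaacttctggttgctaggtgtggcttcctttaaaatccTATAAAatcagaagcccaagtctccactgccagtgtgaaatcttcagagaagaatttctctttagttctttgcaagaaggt
MGMT: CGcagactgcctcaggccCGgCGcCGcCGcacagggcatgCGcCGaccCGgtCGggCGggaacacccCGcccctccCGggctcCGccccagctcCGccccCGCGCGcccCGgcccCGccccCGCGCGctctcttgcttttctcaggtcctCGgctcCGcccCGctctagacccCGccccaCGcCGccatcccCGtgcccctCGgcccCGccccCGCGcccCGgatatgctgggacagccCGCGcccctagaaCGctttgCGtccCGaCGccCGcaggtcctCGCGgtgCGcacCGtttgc
PTPRC: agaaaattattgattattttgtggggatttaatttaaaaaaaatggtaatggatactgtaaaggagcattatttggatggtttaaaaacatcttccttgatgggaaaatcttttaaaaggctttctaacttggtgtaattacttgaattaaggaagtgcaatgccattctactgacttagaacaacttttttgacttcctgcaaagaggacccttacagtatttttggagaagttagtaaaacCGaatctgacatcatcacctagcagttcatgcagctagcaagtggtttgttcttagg
ANXA2 had levels of 13.70, 13.70 and 13.61, and ANXA1, another annexin, had 12.66, 12.75 and 12.64. PTPRC, the leukocyte surface phosphatase CD45, had 4.58, 4.49 and 4.51, and MGMT, the enzyme that removes alkyl groups from guanine, had 4.56, 4.48 and 4.41. The annexins were above the line and the other genes below it on every array. The window of ANXA1 holds TATAAA and no CG at all, and that of MGMT is dense in CG and holds no TATAAA.

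The glial label was met by some markers and not by others. Of 21 measured astrocyte genes 7 were above the line, 4 were not separated and 10 were below, against 45.8% above among all genes. GFAP, the astrocyte filament protein, had 6.79, 6.68 and 9.25, so replicates 1 and 2 lay just under their lines and replicate 3 stood well above its own. Its mean of 7.57 (SD 1.46) was not separated from the line (0.71 ± 0.48 SE, limma adjusted p = 0.187). With other settings GFAP was above the line: with an intensity trend (0.71, adjusted p = 0.0102), with the median of its probe sets (0.52, adjusted p = 0.0424) and with the line at the 90th percentile (adjusted p = 0.00156, all by limma). Limma's prior degrees of freedom, the weight given to the variance shared among genes, were 47.5, 13.1 and 15.2, against 6.09 in the main fit. A gene's own spread, large for GFAP, therefore counted less in those fits. The line was also lower with the median of probe sets, at 6.59, 6.39 and 6.17 in replicates 1, 2 and 3. A dimmer GFAP probe set had 6.48, 6.13 and 6.08, so it did not share the high value of replicate 3. Without replicate 3 the distance of the brighter set from the line was −0.22 (adjusted p = 0.326 by limma), and without replicate 2 it was 1.15 (adjusted p = 3.5e-05, in a fit that gave all genes 1 pooled variance). SOX9, a transcription factor of glial fate, was steadier at 9.75, 9.80 and 10.06 (adjusted p = 3.08e-07 against the line by limma). The gap junction protein GJA1 (10.53), glutamine synthetase GLUL (9.65), the fatty acid-binding protein FABP7 (9.56), clusterin CLU (8.76) and the glutamate transporter SLC1A3 (8.18) were above the line too. The brightest member, the hyaluronan receptor CD44, had 13.17, 13.15 and 13.06 and is shared with mesenchymal lists. The water channel AQP4 (4.40), the calcium-binding protein S100B (4.85), the secreted SPARCL1 (4.38) and the membrane protein MLC1 (4.90) were among the 10 below. SLC1A2 (7.03), NDRG2 (7.02) and ALDOC (6.65) were, like GFAP, not separated from the line.

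Progenitor genes were a mixed group, with 7 of 16 measured members above the line (43.8%, near the 45.8% of all genes) and 8 below. VIM had 13.57, 13.71 and 13.70, and NES, the progenitor filament protein nestin, had 8.96, 8.62 and 9.60. SOX2, a stem cell transcription factor, had 8.49, 7.61 and 8.67, with replicate 2 the lowest. Its other probe sets lay at 6.56 and 5.04, and with the median of its sets it was not separated from the line (0.17, adjusted p = 0.454 by limma). HES1 (8.87), a Notch target repressor, and the transcription factors ZIC1 (7.81), PAX6 (7.81) and NR2E1 (7.42) were also above the line. PAX6 had the same deposited value, 7.8078, on all 3 arrays at its only probe set, and the reason was not tested. NR2E1 did not pass without replicate 2 (0.44, adjusted p = 0.115 by limma). PROM1, the surface protein CD133, had 4.00, 4.11 and 4.04, near the dimmest levels on the arrays and below the line. The transcription factors EMX2 (4.07) and SOX1 (4.86) and the RNA-binding protein MSI1 (4.97) lay below it as well.

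Oligodendrocyte genes were mostly below the line. In the precursor list 2 of 10 measured members were above, PDGFRA (10.86), a receptor for platelet-derived growth factor, and BCAN (7.68), a brain proteoglycan whose other 2 probe sets lay at 5.41 and 4.48. OLIG2 (4.49), NKX2-2 (3.97) and SOX10 (5.67), transcription factors of that lineage, and the phosphatase PTPRZ1 (3.89) were below. In the mature list 1 of 11 was above: CNP, an enzyme of myelin membranes that other cells also make, with 9.78, 9.83 and 10.18. The myelin genes MBP (5.28), MAG (4.68), MOBP (4.58) and MOG (4.52) were all below the line.

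Neuronal genes were above the line in 3 of 23 cases, and 16 were below. TUBB3, a neuronal tubulin, had 11.77, 11.61 and 12.13. Each of its probe sets is of the kind marked _x_at, which may bind several transcripts. NEFL, the light neurofilament chain, had 11.69, 11.25 and 12.23. Its partners in the neurofilament, NEFM (4.39, 4.32 and 4.41) and NEFH (4.22, 4.27 and 4.25), lay below the line on every array. SYT1, a vesicle calcium sensor, was above at 7.63, while MAP2 (6.94) and SNAP25 (6.56) were not separated. Both calls depended on the setting. MAP2 was above with the line at the 90th percentile (0.76, adjusted p = 0.000273 by limma). SNAP25 was below with the line at the 99th (−0.69, adjusted p = 4.63e-05), with an intensity trend (−0.30, adjusted p = 0.0355) and without replicate 1 (−0.27, adjusted p = 0.035, all by limma). STMN2 (4.55) and the vesicular glutamate transporter SLC17A6 (3.91), markers of differentiated neurons, were below.

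Markers of the leukocytes and vessels found in tumour tissue were at or near background. Of 15 measured microglia and leukocyte genes 0 were above the line by limma's test, 0 also at an unadjusted p under 0.05 and with an intensity trend, and 2 (CD53 at 7.05 and AIF1 at 6.77) reached the line on any array. PTPRC (4.53), CX3CR1 (4.35) and SPI1 (4.71) were among the 12 below. Of 16 endothelial genes 0 were above by limma's test (0 at an unadjusted p under 0.05, 0 with an intensity trend), 15 were below and TEK (6.70), an angiopoietin receptor, was not separated. PECAM1 (5.65) and CDH5 (4.37), junction proteins of the vessel wall, were below. Pericyte and smooth muscle genes were above in 3 of 14 cases. The adhesion molecule MCAM (9.13) was the brightest, and SMTN (7.59) and MYH11 (7.22), contractile proteins of smooth muscle, were near the line. MCAM and MYH11 have only probe sets of the kind marked _x_at, which may bind several transcripts. Without such sets these genes were not measured, and 1 member was above. Sets that MCAM shares with other symbols reached 10.15. The other 3 MYH11 probe sets lay at 4.39 to 6.24, it did not pass without replicate 2 (0.35, adjusted p = 0.222) or replicate 3 (0.36, adjusted p = 0.0978 by limma), and ACTA2 (5.94), TAGLN (5.11) and CNN1 (5.01), other smooth muscle genes, were below. ACTA2 was not separated with the line at the 90th percentile (−0.23, adjusted p = 0.184 by limma).

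Mesenchymal and fibroblast genes stood above the line in 15 of 22 cases (1 not separated, 6 below), with a median level of 8.58. TNC, the matrix protein tenascin C, had 11.32, 11.47 and 11.30, and FN1, fibronectin, had 10.73, 11.15 and 10.83. CDH2, N-cadherin, had 10.65, 10.76 and 10.52, whereas CDH1, the epithelial E-cadherin, had 4.41, 4.40 and 4.18. The transcription factors CEBPB (10.47), STAT3 (9.68) and the surface protein THY1 (9.70) belonged to the members above. COL3A1 (4.61), LUM (3.56), PDPN (4.55) and FAP (4.97), all found in tissue fibroblasts or reactive stroma, were below.

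Epithelial genes were above in 3 of 21 cases: the simple-epithelium keratins KRT18 (10.42) and KRT8 (7.64), and the desmosomal DSP (7.69, 7.61 and 6.91). KRT18 and KRT8 each rest on 1 probe set of the kind marked _x_at, which may bind several transcripts. Without such sets neither gene was measured, and 1 member of the list was above. DSP did not pass without replicate 2 (0.43, adjusted p = 0.133 by limma). EPCAM (4.28), GRHL2 (4.28), KRT19 (4.41) and KRT14 (4.44) were below. Melanocyte and neural crest genes were above in 1 of 13 cases, the transcription factor TFAP2A (7.90, other probe sets at 6.27 and 4.40), with MITF (5.78), MLANA (4.69) and TYRP1 (3.98) below. Across intermediate filament genes, 9 of 18 were above, among them the lamins LMNA (10.40) and LMNB2 (9.76) and the filament-linker SYNM (9.16). VIM, NES, NEFL, KRT18 and KRT8, filament genes of mesenchymal, progenitor, neuronal and epithelial cells, were all above the line.

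Most germ cell and HOX genes were below the line, and a few were bright. MAGEA6, a cancer-testis gene on the X chromosome that is used in testis and in tumours, had 12.22, 12.09 and 11.74, and MAGEA12 had a mean of 11.23. MAGEA1 was also above the line at 7.63, whereas MAGEA4 (4.22), PRAME (4.75) and CTAG2 (5.03) were below, which left 3 of 15 measured germ cell and cancer-testis genes above. MAGEA family members are near-identical, and a probe set shared by MAGEA6 with a relative lay at 11.95, so which member gave the signal is uncertain. All 3 rest on a single probe set of the kind marked _x_at, which may bind several transcripts. Without such sets these genes were not measured. The count of 0 members above the line in that setting therefore says nothing about them. HOX genes, which pattern the body axis behind the forebrain, were above the line in 5 of 24 cases, led by HOXB7 (8.76, 9.45 and 9.68) and HOXC6 (8.39); without replicate 2 or without replicate 3, 2 of 24 were above. HOXA2 (4.18), HOXB8 (4.22) and HOXD12 (4.12) were below.

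WT1, the zinc finger transcription factor that the study targets, had 6.05, 6.58 and 5.89 with reagent alone. These levels were below the line (−0.68 ± 0.17 SE, limma adjusted p = 0.00454) but above the background-gene median on every array. With the line at the 90th percentile of the background genes WT1 was not separated from it (0.0032, adjusted p = 0.986 by limma), and the dimmer WT1 probe set had a mean of 5.08. Of 11 measured genes of kidney and podocyte, tissues known for WT1, 2 were above the line: the kidney transcription factor PAX8 (8.54) and the podocyte surface protein PODXL (8.42). The other 7 PAX8 probe sets lay lower, at 4.34 to 6.65. EYA1 (7.06), SALL1 (6.91) and SYNPO (6.81) were not separated, and without replicate 1 EYA1 (0.33, adjusted p = 0.0135) and SALL1 (0.54, adjusted p = 0.00082 by limma) passed, for 4 of 11 above. PAX2 (5.70), SIX2 (5.41) and NPHS1 (5.08), the last of which codes for nephrin, were below.

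**Figure D3:**
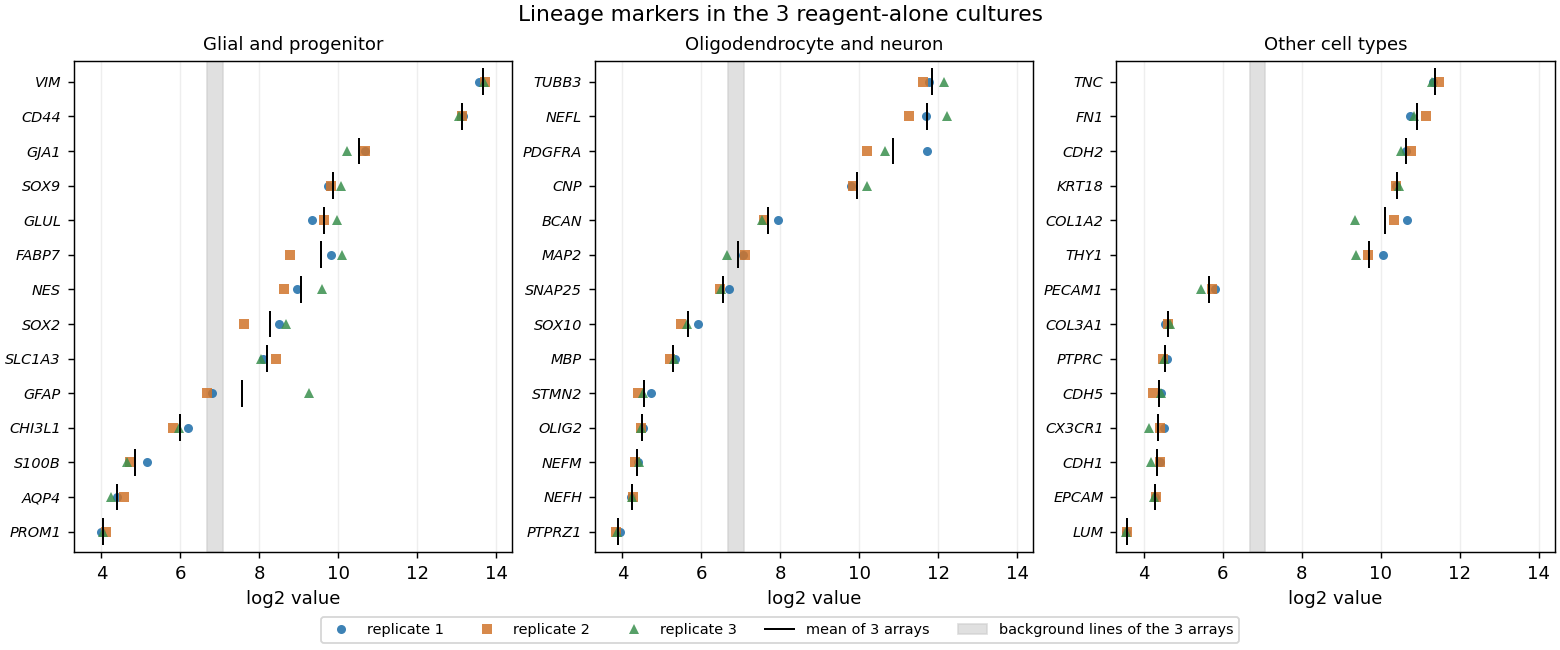
Log2 levels of lineage markers in the 3 reagent cultures (symbols by replicate number, black ticks for means), with the range of the 3 background lines in grey. Vimentin, CD44, TUBB3, NEFL, TNC, FN1 and N-cadherin sit far right of the grey band on all arrays; OLIG2, NEFM, PTPRC, CDH1, EPCAM and LUM sit left of it, and GFAP is split, with replicate 3 alone at 9.25.

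Each matrix list held genes on both sides of the line. Of 31 measured collagen genes 12 were above the line and 16 below, a share above of 38.7% against 45.8% among all genes. COL6A1 (11.03), COL4A2 (10.87) and COL4A1 (9.74) code for microfibril and basement membrane chains, and COL5A1 (9.73) and COL11A1 (9.62) for minor fibrillar chains. COL1A2, a chain of type I collagen, had 10.67, 10.32 and 9.36, and COL1A1, its partner, had 8.25, 7.72 and 7.46, while the other 3 COL1A1 probe sets lay at 4.26 to 5.61, below the line. COL3A1, COL2A1 (4.42) and COL4A4 (4.04) were below.

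Matrix glycoproteins were above the line in 18 of 38 cases (47.4%). TGFBI had 12.52, 12.74 and 12.34, SPARC had 12.18, 12.20 and 12.04 and THBS1, thrombospondin 1, had 11.70, 11.52 and 11.40. These secreted adhesion proteins were far above the line in all 3 cultures. SPP1 (11.14), which codes for osteopontin, CCN2 (11.09) and EFEMP1 (10.97) were also bright. POSTN (4.83), IBSP (4.82), COMP (4.53) and the brain matrix protein TNR (4.81) were below. Proteoglycan genes were above in 9 of 25 cases, with the heparan sulfate carriers SDC1 (10.85), SDC2 (9.04) and SDC4 (9.03) and the chondroitin sulfate carrier VCAN (9.54), while LUM, OGN (3.79) and CSPG4 (4.41) were below.

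Integrins, the receptors for this matrix, were above in 10 of 23 cases (43.5%, near the 45.8% of all genes). ITGB1, the chain shared by many integrins, had 11.63, 11.75 and 11.43 at 1 of its 5 probe sets and 4.21 or less at the others. ITGAV, whose protein binds RGD ligands such as fibronectin and osteopontin, had 11.07, 11.09 and 10.92. ITGA3 (10.06), ITGA6 (9.55), ITGB5 (9.31) and ITGB4 (8.85) were above too, ITGB4 not with the median of its probe sets (0.35, adjusted p = 0.127 by limma), and the leukocyte chains ITGB2 (5.04) and ITGAL (4.83) below. Matrix proteases and their inhibitors were above in 18 of 34 cases (52.9%). Among them were the membrane proteases ADAM9 (11.73), ADAM12 (11.34) and ADAM10 (10.67), the plasminogen activator PLAU (10.59) and the inhibitor TIMP1 (10.34). MMP12 (4.19), MMP13 (4.28) and ADAMTS5 (3.95) were below. Cadherins and junction genes were above in 11 of 28 cases, with ALCAM (11.37), CDH2, GJA1 and CDH11 (9.86) the brightest and VCAM1 (4.20) and CDH19 (3.68) among those below.

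Receptor genes were more often below the line than above it in 6 of 7 lists. The other, antigen presentation, had 12 above and 11 below. Among all genes 45.8% were above and 43.7% below. The lists had 13.5% (ionotropic receptors) to 44.4% (antigen presentation) above, the latter near the share of all genes. Receptor tyrosine kinases were above in 14 of 48 cases and below in 27. AXL, a receptor that promotes survival and migration, had 10.44, 11.29 and 11.41. MET, the receptor for hepatocyte growth factor, had 10.87, 11.28 and 10.91. PDGFRA had 11.72, 10.20 and 10.65, with replicate 1 highest, and EGFR, the epidermal growth factor receptor that is often amplified in glioblastoma, had 9.54, 10.28 and 9.96. All were above the line in every culture. EPHA3 (9.56), EPHA2 (9.48), RYK (9.36) and IGF1R (9.22) were above as well, and the EGFR relatives ERBB3 (4.96) and ERBB4 (4.78) below.

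Of 46 cytokine and death receptor genes 16 were above. IL13RA2, a high-affinity interleukin 13 receptor chain known from glioblastoma, had 11.07, 11.65 and 10.71. IL6ST (10.58), the shared gp130 chain, TNFRSF12A (10.56), the TWEAK receptor, and the interferon gamma receptor chains IFNGR2 (9.18) and IFNGR1 (9.07) were above. CSF2RB (4.29), IL21R (4.55) and IL18R1 (3.94), receptors of blood cells, were below. TGF-beta, Wnt, Notch and Hedgehog receptors were above in 10 of 28 cases, with FZD2 (9.69), FZD6 (9.68), NOTCH2 (9.39) and TGFBR2 (8.81) among them and PTCH1 (5.08) and FZD10 (4.26) below.

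Neurotransmitter and hormone receptors were rare. Ionotropic receptor genes were above in 5 of 37 cases and never brighter than 7.55 (GRIK5, whose other probe set lay at 4.69), and the glutamate receptor GRIA2 (4.14) and the glycine receptor GLRA3 (3.79) were below. Without replicate 2 or without replicate 3 the count was 3 of 37, and with the line at the 99th percentile it was 0. Of 56 G protein-coupled receptors 8 were above: the thrombin receptor F2R (10.79), the adenosine receptor ADORA2B (9.89), the neuropeptide Y receptor NPY1R (9.68), PTGER4 (8.63), S1PR1 (8.49), DRD2 (7.36) and the adhesion receptors ADGRG1 (9.77) and ADGRE5 (8.57). NPY1R had 9.82, 9.04 and 10.18, lowest in replicate 2 and above the line throughout. DRD2 did not pass without replicate 2 (0.51, adjusted p = 0.0696 by limma), and its probe sets lay at 5.43 to 7.36. HTR2C (3.87) and PTGER2 (3.77) were the dimmest. Nuclear receptors were above in 10 of 39 cases, led by the glucocorticoid receptor NR3C1 (9.99, 10.36 and 10.19), with the progesterone receptor PGR (3.85) below.

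Antigen presentation genes split by class. The class I light chain B2M had 13.08, 13.02 and 12.89, and the heavy chains HLA-C (10.24), HLA-B (10.00) and HLA-E (9.47) were above the line, though their probe sets may cross-read related heavy chains. The class II genes HLA-DRA (5.23), HLA-DPB1 (4.60) and CD74 (5.06) and their activator CIITA (6.18) were below, as was the costimulatory CD86 (4.57).

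**Figure D4:**
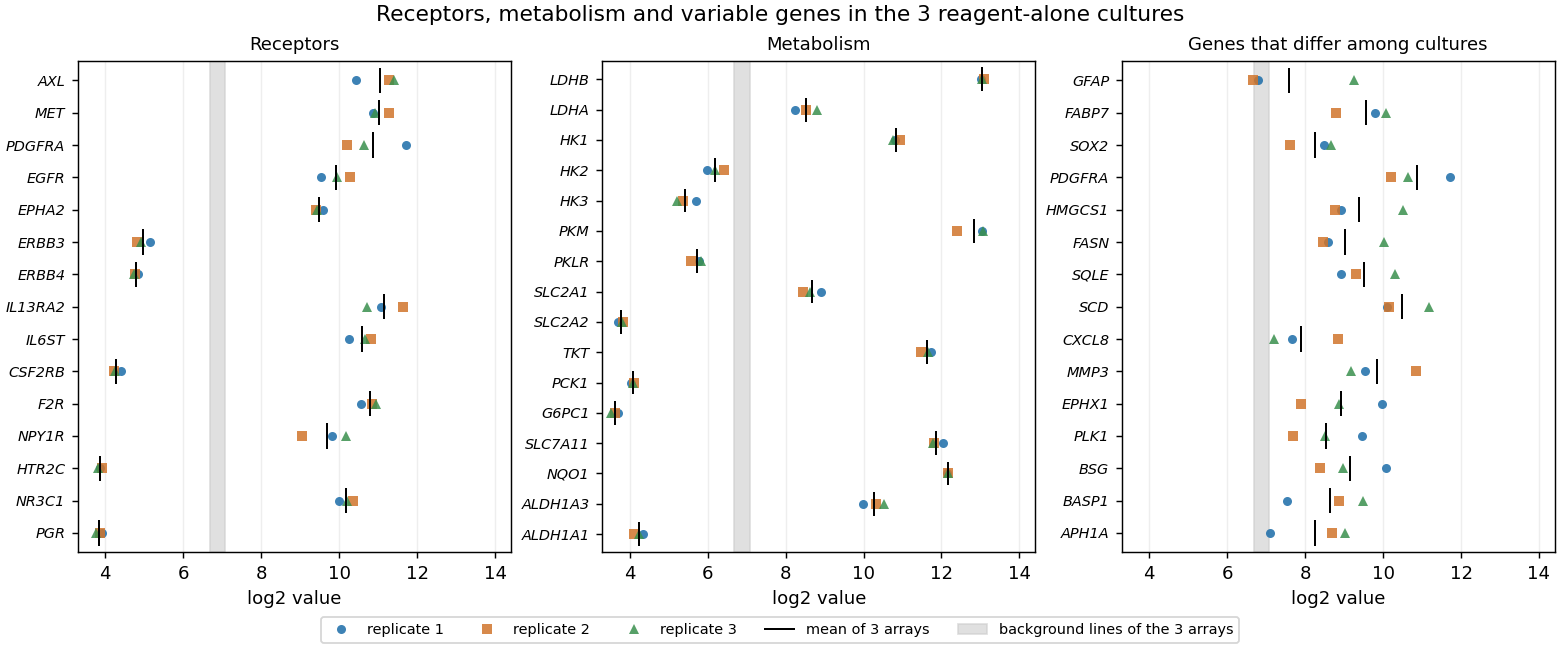
Log2 levels of receptors, metabolic genes and genes that differ between cultures, for each of the 3 reagent cultures (symbols by replicate number, black ticks for means), with the range of the background lines in grey. LDHB, HK1, PKM and SLC7A11 lie right of the grey band and HK2, PKLR and SLC2A2 left of it on all arrays; the right panel shows GFAP, HMGCS1, FASN, SQLE and SCD highest in replicate 3 at their brightest probe sets, whereas the other sets of GFAP and SCD were highest in replicate 1.

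Of 8 metabolic lists 7 had a larger share above the line than the 45.8% of all genes. The other was the synthesis of urea, bile acids and steroid hormones. Glucose transport and glycolysis genes were above in 17 of 34 cases, and for several steps 1 isoform was bright and a tissue-specific isoform was below the line. For hexokinase, HK1 had 10.82, 10.94 and 10.76, while HK2 had 5.98, 6.42 and 6.20 and HK3 a mean of 5.43. HK1 was above the line and the other isoforms below it on every array, but HK2 was not separated from a line at the 90th percentile (0.028, adjusted p = 0.887 by limma). For pyruvate kinase, PKM had 13.05, 12.40 and 13.06 and the liver isoform PKLR a mean of 5.72. For lactate dehydrogenase, LDHB had 13.02, 13.08 and 13.03, LDHA, read by a single probe set, had 8.24, 8.52 and 8.80, and the testis isoform LDHC had a mean of 5.03; LDHB and LDHA were above the line. ENO1 (13.02), PGK1 (12.70), PGAM1 (12.44) and ALDOA (12.43) were above, and PGAM2 (4.25) and PGK2 (4.93) below. The glucose transporter SLC2A1 had 8.92, 8.46 and 8.64, and the liver transporter SLC2A2 (3.78) and the insulin-responsive SLC2A4 (4.40) were below.

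Pentose phosphate enzymes such as TKT (11.62), TALDO1 (11.41) and PGD (9.72) and the glycogen phosphorylase PYGB (10.34) were above the line, and the gluconeogenic enzymes PCK1 (4.08), FBP1 (5.08) and G6PC1 (3.62) below, for 14 of 23 above in that list. Citrate cycle and pyruvate entry genes were above in 21 of 29 cases, with MDH2 (11.47), MDH1 (11.31), SDHD (10.82) and the citrate synthase CS (10.72) the brightest. The 4 below were the malic enzyme ME1 (4.92), the testis subunit PDHA2 (4.67) and the pyruvate dehydrogenase kinases PDK1 (5.74) and PDK4 (4.30).

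Glutamine, serine and one-carbon genes were above in 22 of 31 cases. TYMS, thymidylate synthase, had 12.41, 12.41 and 12.54, and SLC7A11, the cystine-glutamate exchanger, had 12.03, 11.81 and 11.78. The amino acid transporters SLC38A2 (11.76) and SLC38A1 (10.83) and the folate enzymes MTHFD1 (10.99) and MTHFD2 (10.76) were above. CTH (4.99) and CBS (5.79), which make cysteine from homocysteine, and the glycine cleavage enzyme GLDC (5.86) were below. With the line at the 90th percentile CBS (−0.38, adjusted p = 0.133) and GLDC (−0.32, adjusted p = 0.127 by limma) were not separated from it. SHMT1 was below at 4.45 by its own probe set, but a probe set it shares with another symbol lay at 8.60.

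Redox and detoxification genes were above in 31 of 46 cases. PRDX1 (12.73), TXN (12.31), TXNRD1 (12.29) and NQO1 (12.15, 12.16 and 12.16) carry thiol and quinone reduction, FTL and the transferrin receptor TFRC (12.34) handle iron. ALDH1A1 (4.24), the drug pumps ABCB1 (4.35) and ABCG2 (4.57), and the cytochromes CYP1A1 (5.08) and CYP1B1 (4.99) were below. The list of nucleotide and amino acid breakdown genes, which also holds enzymes of synthesis, had 21 of 32 above. Among these were such enzymes of synthesis: ODC1 (12.16) for polyamines, PAICS (11.74) for purines and the ribonucleotide reductase chains RRM2 (11.64) and RRM1 (11.16). ASS1, the argininosuccinate synthase needed to make arginine, had 6.61, 6.40 and 6.87 and was not separated from the line, though it was below without replicate 3 (−0.44, adjusted p = 0.0399 by limma). Of 17 genes of urea, bile acid and steroid synthesis 3 were above, with OTC (4.16), ARG1 (4.34) and CYP7A1 (3.69) below.

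Fatty acid and sterol genes were above in 25 of 36 cases, with ELOVL5 (12.11), ACLY (11.27), ECHS1 (11.06) and FDPS (10.52) among the brightest and FABP1 (3.69) the dimmest. The other 2 ELOVL5 probe sets lay at 5.73 and 5.43. The cultures were compared at the brightest probe set of each gene. At those sets 18 of the 25 genes above the line were highest in replicate 3, and their median deviation from the gene's own mean was −0.19, −0.12 and 0.29 in replicates 1, 2 and 3. Over all 5474 genes above the line that deviation was −0.08, 0.06 and 0.02, and 1845 were highest in replicate 3. With the median of a gene's probe sets 15 of 25 were highest in replicate 3, and of the 27 other probe sets of these genes 14 were, counts added after seeing the data. HMGCS1, an early enzyme of sterol synthesis, had 8.92, 8.76 and 10.50, and SCD, which makes monounsaturated fatty acids, had 10.11, 10.15 and 11.18. FASN, fatty acid synthase, had 8.59, 8.46 and 10.02, and SQLE, squalene epoxidase, had 8.92, 9.31 and 10.32. At these sets all 4 were highest in replicate 3. The other sets of HMGCS1 and SQLE were highest there too, one SQLE set at 8.68 against 8.66 in replicate 1, but the other 3 SCD sets were highest in replicate 1 (one had 9.09, 7.06 and 7.38) and so was the other FASN set, at a mean of 4.93. The brighter GFAP set was also highest in replicate 3, and no test between single cultures is possible.

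**Figure D5:**
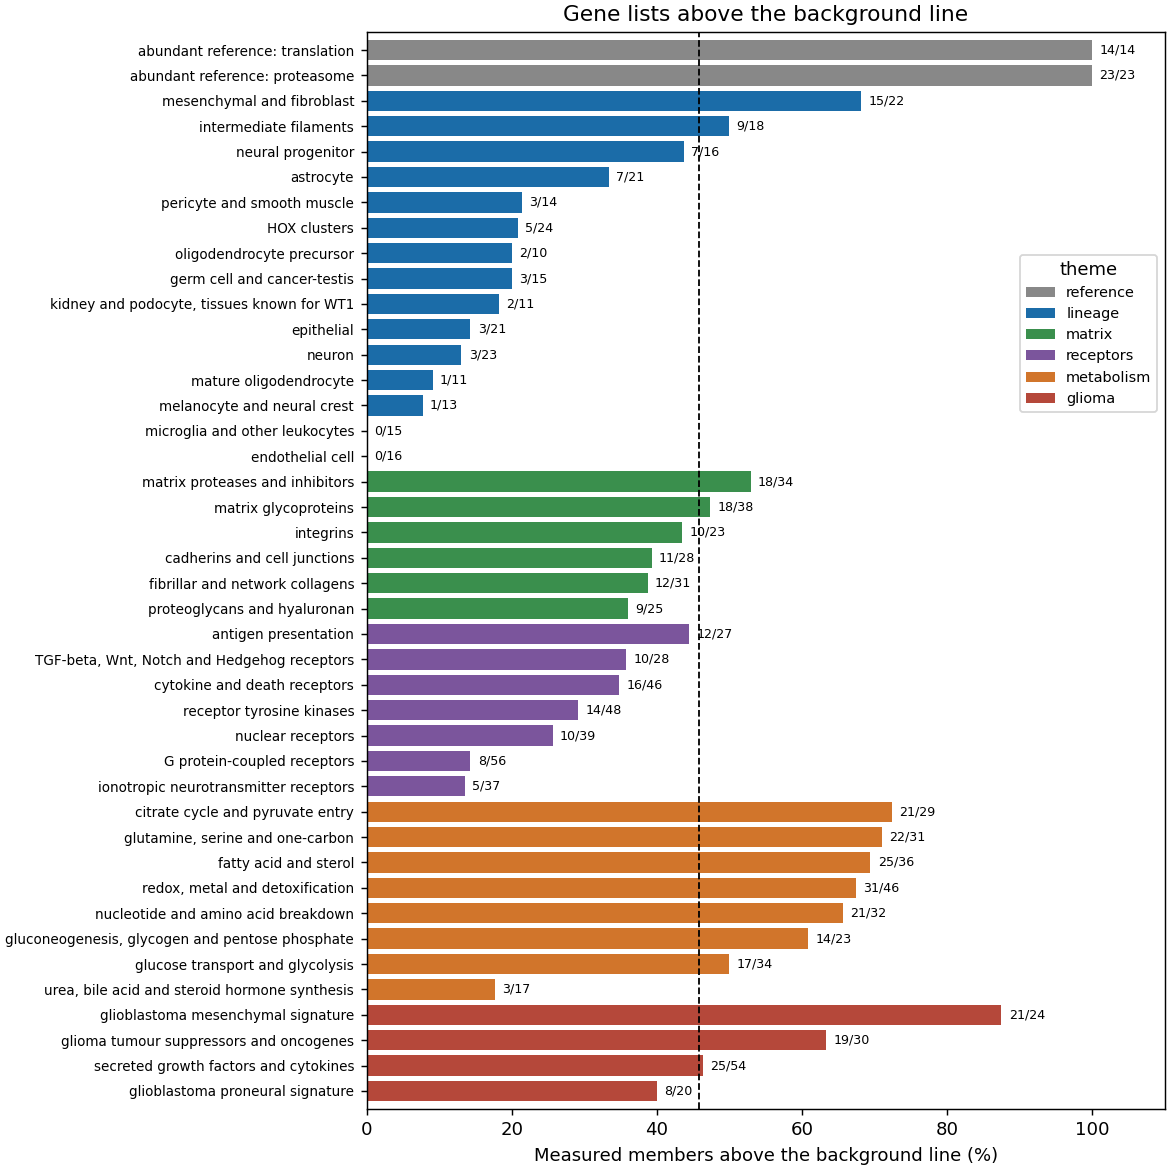
Share of the measured members of each gene list above the background line (bars, %), coloured by theme, with counts at the bar ends and the share of all genes, 45.8%, as a dashed line. The reference lists reach 100% and the mesenchymal signature list 87.5%, while the leukocyte and endothelial lists have 0 members above.

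Among genes altered in gliomas, 19 of 30 measured were above the line and 11 below. CCND1 had 10.81, 11.28 and 11.51 and CDK4 had 11.11, 11.08 and 11.27; both drive entry into S phase. MYC (9.14), a growth-promoting transcription factor, the tumour suppressors RB1 (10.10) and NF2 (10.84), and IDH1 (9.83), a metabolic enzyme mutated in a class of gliomas, were above. The cell cycle inhibitors CDKN2A (6.11, 5.84 and 5.73) and CDKN2B (4.18, 4.18 and 4.03), neighbours in a region often deleted in glioma, were below the line on every array. With the line at the 90th percentile CDKN2A was not separated from it (−0.28, adjusted p = 0.111 by limma). MTAP, which lies next to them, was above it at 7.41, 8.07 and 7.77, while the dimmest of its 5 probe sets lay at 5.11, so its probe sets disagree. MGMT, TERT (6.10), MDM2 (4.87) and MDM4 (3.91) were below. TERT has 1 probe set, so its own value was the same in all settings, but it was not separated from lower lines. These were the line from the median of probe sets (−0.29, adjusted p = 0.0847 by limma) and that at the 90th percentile (−0.075, adjusted p = 0.673 by limma).

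In the list of 25 genes used here for the glioblastoma mesenchymal signature, 21 of 24 measured genes were above the line, with a median of 10.27. The share among all genes was 45.8%. Of the listed genes 12 were among the 1000 brightest genes, which hold 8.36% of all genes. LGALS1, galectin 1, had 12.95, 12.99 and 12.90, and CAV1, the main protein of caveolae, had 12.38, 12.44 and 12.21. The members not above were ITGA4 (6.75, not separated), CHI3L1 (5.99) and RELB (5.51). CHI3L1, a secreted glycoprotein often used to mark this type, had 6.19, 5.82 and 5.96, below the line on every array, but it was not separated from a line at the 90th percentile (−0.18, adjusted p = 0.304 by limma). The proneural signature was above in 8 of 20 cases, with a median of 5.95. PDGFRA, CKB (10.35), SOX4 (9.15) and SOX2 were above, and OLIG2, DLL3 (5.65), DCX (5.20) and NKX2-2 below. No test compared these lists, and several of the mesenchymal members also stand in the matrix lists. Each share depends on which genes were listed.

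Secreted growth factors and cytokines were above in 25 of 54 cases (46.3%, near the 45.8% of all genes). DKK1, a secreted Wnt antagonist, had 11.88, 11.96 and 11.99, and DKK3 (11.31), PDGFC (10.67), PTN (10.03) and VEGFA (9.59) were above too. The probe sets of DKK3 reached down to 3.72 and those of PTN to 5.39. CXCL8, interleukin 8, had 7.67, 8.84 and 7.21 and was highest in replicate 2. Without _x_at probe sets it was not separated from the line (0.08, adjusted p = 0.742 by limma). CXCL1 (4.36), CCL20 (4.13), GREM1 (4.02) and EREG (3.84) were below. For receptors named above, the hepatocyte growth factor gene HGF (5.75) was below the line while MET was above, and EGF (6.72) was not separated while TGFA (7.66) and HBEGF (7.32), other EGFR ligands, were above. The other 2 TGFA probe sets lay at 6.14 and 5.54, and HBEGF did not pass without replicate 2 (0.38, adjusted p = 0.18 by limma).

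The cultures differed little in most genes. The median SD over the 3 arrays was 0.158 among genes above the line, and 112 of the 5474 (2.05%) had a range over 1 log2 unit. EPHX1, an epoxide hydrolase, had the widest range among the genes above the line, with 9.97, 7.89 and 8.86. BASP1, a membrane protein of growing neurites, had 7.53, 8.87 and 9.50. APH1A, a gamma-secretase subunit, had 7.09, 8.68 and 9.03, near the line in replicate 1. PLK1, a mitotic kinase, had 9.45, 7.68 and 8.50, and BSG, a chaperone of lactate transporters, had 10.08, 8.38 and 8.97; both were highest in replicate 1 and lowest in replicate 2. MMP3, a matrix protease, had 9.55, 10.84 and 9.17 and, like CXCL8, was highest in replicate 2. PLAGL1 (7.04, 8.62 and 8.73) and the tubulin gene TUBB2B (8.01, 8.81 and 9.68) were lowest in replicate 1. Of the 112 genes, 58 had replicate 1 as the culture farthest from the other arrays, 37 had replicate 3 and 17 replicate 2. The chip's ACTB control sets for the 3′ end were brighter than those for the 5′ end by 0.09, 0.62 and 0.51 in replicates 1, 2 and 3, so replicate 1 stood apart in this measure of transcript integrity as well; its part in the differences was not tested. The corresponding differences for GAPDH were −0.02, 0.16 and 0.10.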

How the data were processed

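RNA of 3 U251 cultures treated with the transfection reagent alone was measured on Affymetrix arrays. The deposited values are log2 levels per probe set, made by the authors with RMA, per the submitters' processing notes; this method subtracts background and normalises probes between arrays, so levels are relative. No source used here names the software, its version or the chip definition. The values were used as deposited.

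Of 22277 probe sets, 62 control sets were left out. Gene symbols came from the platform annotation: 19064 probe sets had 1 symbol, 1043 several and 2108 none, and 19052 symbols were looked up again in RefSeq, which changed 0. Each of 11963 genes was represented by its probe set with the highest mean over the 3 arrays.

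In each array the background line was the 95th percentile of 87 measured genes (of 101 listed, in 9 lists of unrelated tissues). The value minus the line of the same array was tested against 0, two-sided, with limma 3.58.1 (lmFit and eBayes, intercept only) in R 4.3.3, with Benjamini-Hochberg adjustment over all 11963 genes. The procedure was run on simulated data with independent noise for each gene. Those data held no error of a shared line, so the run cannot check the calls for it. Genes were described in 40 lists beside 2 reference lists. Alternatives were the 90th and 99th percentile, leaving out each background list or replicate, other choices of probe set, an intensity trend, calls from 3 of 3 arrays, and centring of the arrays.

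Groups came from the sample titles. The genes and lists were chosen with earlier results of these data known. The lists are short selections, with cell type markers written from general knowledge. Named by rule were the 30 brightest genes, the 10 with the widest range among genes above the line, up to 8 of the brightest and 6 of the dimmest members of each list, members not separated from the line where a list had 3 or fewer, and a short list of glioma and lineage genes. Named outside it, after their values were seen, were CIITA, COL1A1, CYP3A4, EGF, ERBB4, FASN, HBEGF, HGF, HK1, HK3, PKLR, SQLE and TGFA. Promoter windows came from RefSeq (GRCh38.p14), 1 per gene, for the 6810 genes with exactly 1 entry of 9563 with any. The arrays give no coordinates. Figures were drawn with matplotlib 3.10.9.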

Additional observations from a re-analysis of the deposited data

How the results depend on the processing

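The number of genes above the line went from 4945 with the line at the 99th percentile to 6645 at the 90th, around 5474, and the number below from 5927 to 3968, around 5222. Leaving out a replicate gave 5154 to 5912 above and 4890 to 5251 below. Centring the arrays cannot change a call by construction, because each line moves with its array. No paired analysis was possible because there is 1 group and no comparison between groups. Of the 40 lists, counts of members above the line stayed within 1.5 times except as follows. At the 90th percentile the counts were 11 for astrocyte, 7 for neuron, 3 for leukocyte, 1 for endothelial, 5 for epithelial, 5 for kidney and podocyte, 11 for HOX, 16 for TGF-beta, Wnt, Notch and Hedgehog receptors, 8 for ionotropic receptors, 16 for G protein-coupled receptors and 17 for nuclear receptors. At the 99th percentile they were 2 for HOX and 0 for ionotropic receptors. Without the liver genes in the line they were 5 for neuron and 1 for leukocyte, and with calls from 3 of 3 arrays 1 for leukocyte. With the median of a gene's probe sets they were 1 for oligodendrocyte precursor, 5 for neuron, 2 for leukocyte, 0 for melanocyte, 4 for kidney and 9 for HOX. In that setting the lines were lower too, at 6.59, 6.39 and 6.17 in replicates 1, 2 and 3. A gene with 1 probe set, such as EYA1 or SALL1, could therefore pass with its value unchanged. Without probe sets marked _x_at the counts were 1 for pericyte, 1 for epithelial and 0 for germ cell. Genes with only such sets drop out of that setting, among them MCAM, MYH11, KRT18, KRT8, MAGEA6, MAGEA12 and MAGEA1. Leaving out a replicate gave 2 to 4 for kidney, 2 to 5 for HOX and 3 to 6 for ionotropic receptors.

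Distances from the line that changed sign are given in log2 units. With the median of probe sets they were −0.98 for BCAN, −1.005 for COL1A1, −1.33 for CYP3A4, −1.23 for DKK3, −0.57 for ELOVL5, −0.26 for GRIK5, −2.25 for ITGB1, −0.76 for MYH11, −0.91 for PAX8, −0.12 for TFAP2A and −0.24 for TGFA. Without _x_at sets they were −1.16 for COL1A1, −2.02 for CYP3A4, −1.25 for DRD2, −2.09 for GRIK5 and −1.39 for PTN. With the line at the 90th percentile they were 0.012 for CIITA, 0.028 for HK2 and 0.0032 for WT1, none separated, and at the 99th −0.029 for MYH11. These genes have probe sets that disagree or lie near the line; the cause was not tested. Without replicate 2 or replicate 3 limma's prior degrees of freedom were infinite, so 1 pooled variance served all genes and adjusted p-values there do not see a gene's own spread. Without replicate 1 they were 6.42, against 6.09 with all 3 arrays.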
